A study of Mus musculus with 62 samples.

Results

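Fatty acid synthesis and desaturation in the neocortex was followed through 10 genes during the development of melanoma-induced cachexia, a wasting of fat and muscle that accompanies some cancers. The genes were taken by symbol from the deposited expression table, namely Acly, Acss2, Acaca, Fasn, Elovl6, Elovl5, Scd1, Scd2, Fads1 and Fads2. They are 10 of 47643 genes in the table and of the 14494 genes that had a mean of at least 1 TPM and were tested. All 10 passed that filter. TPM is a transcript abundance corrected for transcript length and scaled to the same sum in every library, so levels of different genes can be set side by side on it.

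Acly cleaves citrate and Acss2 activates acetate, and both deliver cytosolic acetyl-CoA. Acaca turns acetyl-CoA into malonyl-CoA and Fasn assembles from these the saturated fatty acid palmitate, which Elovl6 lengthens and Scd1 and Scd2 convert into monounsaturated fatty acids. Fads2, Elovl5 and Fads1 act in turn on essential fatty acids from the diet and make the long polyunsaturated chains in which brain membranes are rich. In the brain much of this synthesis serves myelin made by oligodendrocytes and membrane lipids supplied by astrocytes, and many of these genes are known targets of the SREBP transcription factors.

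Poly(A)-selected RNA was sequenced from neocortex of female mice that were 2 months of age, per the labels. Mice had received melanoma cells that cause cachexia (CAC, the cachectic melanoma cells), melanoma cells that do not (NCAC, the non-cachectic ones) or a mock injection (Con in the labels), and tissue was taken 2, 4, 6 and 8 weeks later. Each of the 12 groups had 5 libraries except CAC at 8 weeks, which had 7, for 62 libraries in all. Libraries within a group are described as biological replicates. The design text names NCI Ath/nude mice, which are athymic, as the host of all groups, but C57BL6/J is the strain on each sample. Which of these is right could not be settled from the sources used here. The protocol text also mentions LLC cells and a time of 3 weeks, which match no group. The titles of the 7 CAC libraries at 8 weeks carry mouse numbers with gaps, from 19 to 30, and whether mice are missing from that group was not tested.

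Depth was alike in all libraries, at an estimated 44.7 to 50.5 M reads. All libraries of week 2, all CAC libraries and 4 of 5 NCAC libraries of week 4 carried lane 3 in their labels, and the others lane 4. CAC and mock of week 4 therefore differed in lane throughout, as did weeks 2 and 8. Neuron markers were high in every library, with Slc17a7, a vesicular glutamate transporter of cortical neurons, at a mean of 1062 TPM. Mock replicate 5 of week 2 stood apart, with a hypothalamus and pituitary marker score higher by 7.40 log2 units than the median library and a thalamus score higher by 2.61. CAC replicate 1 of week 4 had a low striatum score, at -3.28 from the median. Erythroid scores were at 4.21 and -3.00 from the median in CAC replicates 3 and 4 of week 8. Only the thalamus, striatum and erythroid scores were screened for libraries over 3 log2 units from the median. Choroid plexus markers summed to 68.3 to 2506 TPM in CAC and 578 to 2397 TPM in mock libraries of week 8. Their medians were 164 and 1018 TPM, and 934 and 184, 1067 and 1547, and 183 and 1821 TPM at 2, 4 and 6 weeks. Hypothalamus and pituitary markers also reached 409 TPM in NCAC of week 4 and 403 TPM in CAC of week 6. The part of these markers was not tested.

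The start regions of 7 of the 10 genes were found among the RefSeq promoters of GRCm38.p6, each running from 250 bases before to 50 bases after the start of transcription. Sequences for Scd1, Scd2 and Fads1 were not used here. The region of Acaca, at chr11:84195188-84195487 (plus strand), lies at a start inside the gene, which spans 84129672-84401651 in GENCODE vM21. The regions of Acss2, Elovl5 and Fads2, which fell at 8 weeks, are shown beside that of Fasn, which was not called in any comparison, to put the promoters of genes that moved and did not pass next to each other. They lie at chr2:155517793-155518092 (plus strand), chr9:77917115-77917414 (plus strand), chr19:10101454-10101753 (minus strand) and chr11:120824498-120824797 (minus strand). Each is written in the direction of its gene, and capitals mark matches to any of the motifs searched.
Acss2: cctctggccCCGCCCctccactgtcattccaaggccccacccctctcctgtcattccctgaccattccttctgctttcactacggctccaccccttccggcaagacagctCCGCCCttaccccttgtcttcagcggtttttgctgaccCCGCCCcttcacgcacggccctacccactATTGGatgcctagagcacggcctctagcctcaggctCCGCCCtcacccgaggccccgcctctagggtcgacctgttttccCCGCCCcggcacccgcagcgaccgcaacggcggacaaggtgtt
Elovl5: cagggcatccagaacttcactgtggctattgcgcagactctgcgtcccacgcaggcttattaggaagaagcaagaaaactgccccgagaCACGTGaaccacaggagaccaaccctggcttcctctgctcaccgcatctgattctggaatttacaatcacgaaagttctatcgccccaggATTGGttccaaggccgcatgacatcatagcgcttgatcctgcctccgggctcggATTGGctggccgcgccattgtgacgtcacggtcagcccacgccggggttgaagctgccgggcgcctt
Fads2: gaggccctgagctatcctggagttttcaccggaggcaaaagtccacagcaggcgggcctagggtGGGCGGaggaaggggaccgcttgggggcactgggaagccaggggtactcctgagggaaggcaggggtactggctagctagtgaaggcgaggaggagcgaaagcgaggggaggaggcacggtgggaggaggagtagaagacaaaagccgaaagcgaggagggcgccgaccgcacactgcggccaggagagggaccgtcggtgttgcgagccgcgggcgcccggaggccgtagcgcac
Fasn: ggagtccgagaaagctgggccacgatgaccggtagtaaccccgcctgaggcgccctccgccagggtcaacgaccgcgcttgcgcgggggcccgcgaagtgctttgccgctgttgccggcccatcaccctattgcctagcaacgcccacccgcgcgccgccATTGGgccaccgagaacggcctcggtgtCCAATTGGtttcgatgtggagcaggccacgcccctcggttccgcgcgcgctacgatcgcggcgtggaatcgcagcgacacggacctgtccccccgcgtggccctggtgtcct
The motifs searched on both strands were the sterol regulatory element core TCACNCCAC, the E-boxes CACGTG and CATGTG, the CCAAT box (CCAAT) and the GC box (GGGCGG). The sterol element core was in 0 of the 7 regions, and in 1.242% of 32851 mouse promoters of the same length. CACGTG was in 1 of 7, that of Elovl5 at position -161 from the start, and in 7.15% of all promoters. CATGTG was in 0 of 7 and in 14.155% of all promoters. A CCAAT box was in 4 of 7, with 3 matches in Fasn, 2 of which overlap, 2 in Elovl5 and 1 each in Acss2 and Acly, and in 37.408% of all promoters. A GC box was in 3 of 7, with 5 matches in Acss2, 4 in Acly and 1 in Fads2, and in 35.658% of all promoters. A match describes the letters of the window and is not evidence of binding, and a missing match says only that the letters are not in these 300 bases.

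The 10 genes covered a wide range of levels. Scd2, the main stearoyl-CoA desaturase of the brain, had a mean of 971 TPM over the 62 libraries and ranked at 74 of 14494 tested genes by mean level. Fads1, Fads2 and Scd1 followed with means of 217, 179 and 143 TPM, Acly with 114 TPM, Fasn with 84.8 TPM and Elovl5 with 71.9 TPM. Elovl6 was at 27.4 TPM, and Acaca at 18.3 TPM and Acss2 at 13.6 TPM were the least abundant. Scd1 varied most between libraries of a group, with a median coefficient of variation of 14.4% over the 12 groups, and Fads1 least, with 5.3%. Fads1 and Fads2 are neighbours on chromosome 19, at 10182888-10196877 on the plus strand and 10062765-10101746 on the minus strand, and Scd1 and Scd2 lie close together on the same chromosome, at 44394455-44407879 on the minus strand and 44293674-44306864 on the plus strand (GRCm38, GENCODE vM21). Scd1 and Scd2 are related in sequence, and how reads shared between them were assigned is not given in the sources used here.

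**Figure D1:**
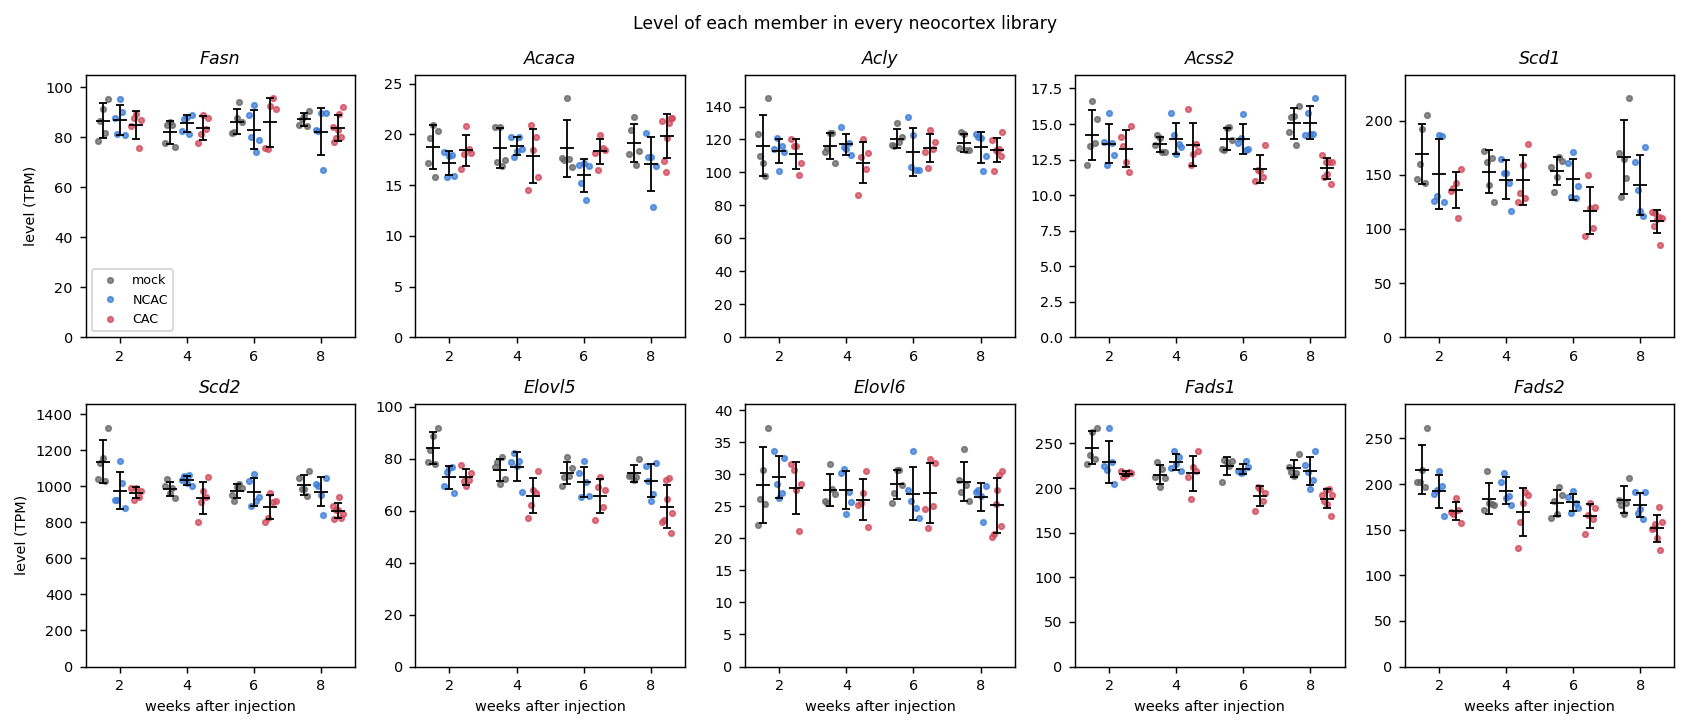
Level in TPM (y axes, from 0) of each of the 10 genes in every neocortex library, by weeks after injection (x axes), for mock (grey), NCAC (blue) and CAC (red). Points are libraries, and black marks give the mean and SD of a group (n = 5, or 7 in CAC at 8 weeks). At 8 weeks the CAC points of Acss2, Scd1, Scd2 and Fads1 all lie below the mock points, whereas those of Fasn, Acaca and Acly overlap them.

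At 8 weeks, the latest time sampled, CAC was set against mock. The desaturases Scd1, Scd2, Fads1 and Fads2, the elongase Elovl5 and the acetate-activating Acss2 fell, while Fasn, Acaca, Acly and Elovl6 were not called. Thus 6 of 10 genes were lower and 0 higher by limma at an adjusted p under 0.05, where 3.69% of all 14494 tested genes were lower. The median difference of the 10 genes was -0.23 on the log2(TPM + 1) scale, and that of all tested genes 0.02. For 4 of the 10 genes, Acss2, Scd1, Scd2 and Fads1, every CAC library lay below every mock library, which held for 1.77% of all tested genes. Because these are bulk tissue libraries, fewer cells of a type and less RNA per cell cannot be told apart. The count stayed at 6 when CAC replicates 3 and 4, whose erythroid scores stood apart, were left out together with CAC replicate 1 of week 4. Fads2 lost its call without mock replicate 5 or without CAC replicate 6 (limma, adjusted p = 0.0857 and 0.0648). Elovl5 lost its call in a fit of only these groups (limma, adjusted p = 0.0519).

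Of the genes that supply acetyl-CoA, Acss2 fell and Acly did not pass. Acss2 was at 14.4, 15.5, 15.6, 13.5 and 16.3 TPM in mock replicates 1 to 5, and CAC libraries ran from 10.8 to 12.8 TPM with a median of 12.3 TPM. The groups did not overlap. Mock had a mean of 15.1 ± 1.09 TPM (SD, n = 5) and CAC of 11.9 ± 0.736 TPM (n = 7), so the mean fell by 21.02%, with a log2 difference of -0.32 with an SE of 0.066 (limma, adjusted p = 0.0011). Acly was at 118 ± 5.39 TPM in mock and 114 ± 7.35 TPM in CAC libraries, and the groups overlapped. Its difference of -0.05 had a 95% interval of -0.20 to 0.09 and did not pass (limma, adjusted p = 0.717).

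The core of palmitate synthesis showed no call. Fasn was at 84.8, 87.2, 88.7, 84.6 and 90.5 TPM in mock libraries and from 78.2 to 91.9 TPM in CAC libraries, with a median of 83.1 TPM. The ranges overlapped, and the log2 difference was -0.06 with a 95% interval of -0.18 to 0.07 (limma, adjusted p = 0.63). Acaca, which makes the malonyl-CoA that Fasn uses, was at 19.1 ± 1.89 TPM (SD, n = 5) in mock and 19.9 ± 2.19 TPM (n = 7) in CAC libraries. Its log2 difference of 0.05 had an interval of -0.13 to 0.22. Whether Fasn or Acaca responded less than the genes that fell was not tested.

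The stearoyl-CoA desaturases both fell. Scd1 was at 170.0, 129, 165, 147 and 220.4 TPM in mock libraries, the widest spread relative to the mean of the 10 genes in mock at that week, and at 85.0 to 115 TPM in CAC libraries, with a median of 110.2 TPM. All 7 CAC libraries lay below the lowest mock library. The mean fell by 35.7%, from 166 ± 34.3 to 107 ± 10.5 TPM, a log2 difference of -0.61 with an SE of 0.125 (limma, adjusted p = 0.000865), the largest of the 10 genes. Scd2, several times as abundant, was at 1043, 987, 985, 943 and 1086 TPM in mock and at 819 to 938 TPM in CAC libraries, with a median of 866 TPM. The groups lay next to each other without overlap, and the log2 difference was -0.22 with an SE of 0.059 (limma, adjusted p = 0.011).

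The front-end desaturases of polyunsaturated fatty acid synthesis fell as well. Fads1 was at 223, 218, 214, 217 and 239 TPM in mock libraries and at 168 to 199 TPM in CAC libraries, with a median of 192 TPM. The groups did not overlap, and the mean moved from 222 ± 9.85 to 188 ± 10.7 TPM, a log2 difference of -0.24 with an SE of 0.052 (limma, adjusted p = 0.00171). Fads2 was at 183, 177, 167, 179 and 207 TPM in mock libraries and at 127 to 174 TPM in CAC libraries, with a median of 152 TPM. Its ranges overlapped, with the highest CAC library above the lowest mock library. The log2 difference was -0.27 with an SE of 0.077 (limma, adjusted p = 0.0171), and the call was lost without mock replicate 5 (adjusted p = 0.0857) or without CAC replicate 6 (adjusted p = 0.0648).

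Of the elongases, Elovl5, which lengthens polyunsaturated chains, fell, and Elovl6, which lengthens palmitate, did not pass. Elovl5 was at 73.5, 73.8, 71.7, 72.7 and 79.8 TPM in mock libraries and at 51.3 to 72.4 TPM in CAC libraries, with a median of 59.1 TPM. CAC libraries were more spread than mock libraries, and the highest reached into the mock range. The log2 difference was -0.28 with an SE of 0.069 (limma, adjusted p = 0.00643), and it had an adjusted p of 0.0519 in a fit of only these groups. Elovl6 was at 28.9 ± 3.10 TPM in mock and 25.1 ± 4.31 TPM in CAC libraries, and its difference of -0.20 had an interval of -0.42 to 0.01 (limma, adjusted p = 0.26).

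Cell type markers also differed between these groups, where 535 of all 14494 tested genes were lower and 712 higher. Of 10 astrocyte markers 3 were lower and 2 higher in CAC at 8 weeks, with a median log2 difference of -0.16, and their summed level was 2488 to 2904 TPM in CAC and 2602 to 3274 TPM in mock libraries. Of 10 mature oligodendrocyte markers 3 were lower and 0 higher, with a median of -0.26 and a summed level of 1713 to 2526 against 2102 to 2548 TPM. Of 7 microglia markers 4 were lower and 0 higher, with a median of -0.35 and a summed level of 358 to 493 against 478 to 851 TPM. Neuron markers had 1 of 9 higher and 0 lower, with a summed level of 4860 to 5676 against 4595 to 5133 TPM. Of 6 endothelial markers 1 was higher and 0 lower, with a summed level of 214 to 338 against 208 to 225 TPM. In NCAC libraries of the same week the summed levels were 2373 to 2751 TPM for astrocytes, 2284 to 2821 TPM for mature oligodendrocytes and 435 to 496 TPM for microglia. None of these markers was at 0 in any library, and their part in the differences of the lipid genes was not tested. Of the markers of adipocytes, which express many of the same enzymes, 0 of 6 reached the filter, the highest value was 1.22 TPM for Retn, and Adipoq, which defines the cell type, was at 0 in 28 of 62 libraries and at most 0.235 TPM in the others.

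**Figure D2:**
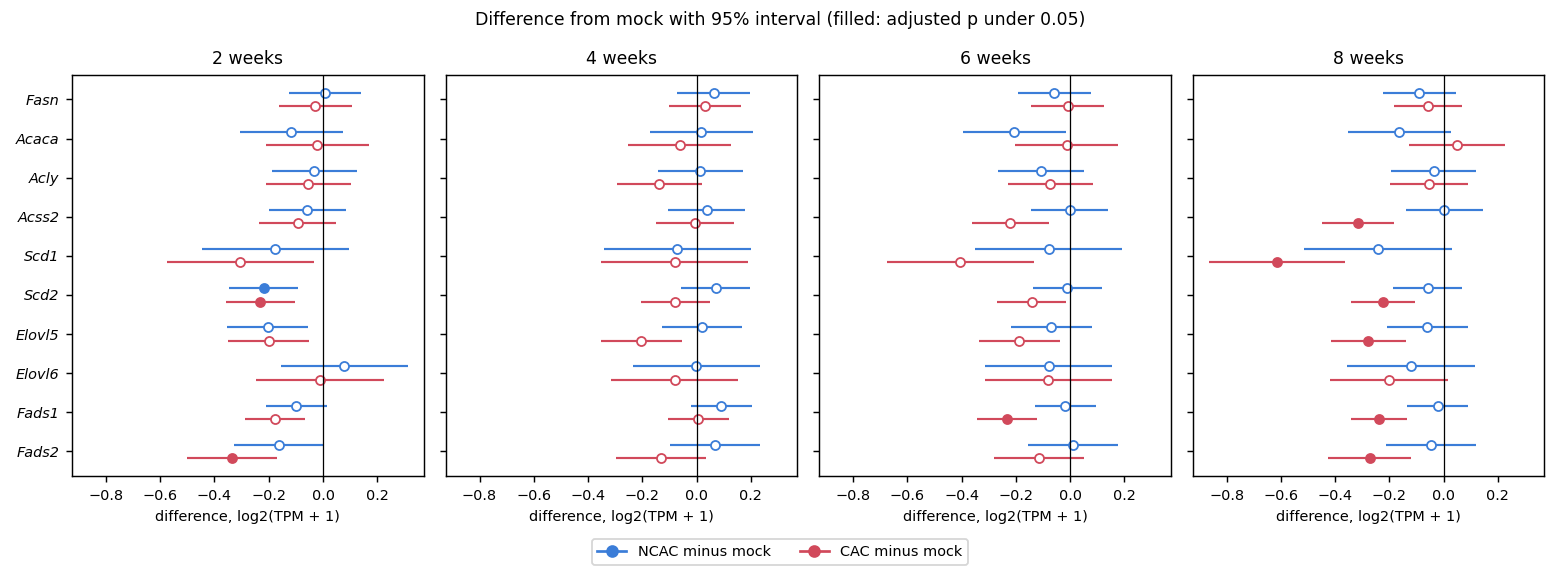
Difference from mock of each gene on the log2(TPM + 1) scale (x axes) at 2, 4, 6 and 8 weeks for CAC (red) and NCAC (blue), with 95% intervals from limma. Filled points had an adjusted p under 0.05. Both arms of a week share their mock libraries. At 8 weeks 6 CAC points and 0 NCAC points are filled.

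NCAC mice carried melanoma without the cachectic cells, and their comparison with the same mock libraries at 8 weeks called 0 of the 10 genes. It called 0% of all genes (limma), and 636 of all genes but 0 of the 10 had an unadjusted p under 0.05. CAC is set against these same mock libraries above, so the comparisons are not independent. Acss2 was at 14.3, 15.8, 14.3, 14.3 and 16.8 TPM in NCAC libraries, a difference of 0.00 with an interval of -0.14 to 0.15. Fads1 was at 226, 218, 199, 209 and 241 TPM, a difference of -0.02 with an interval of -0.13 to 0.09. Scd1 was at 162, 136, 116, 112 and 175 TPM, and NCAC libraries lay on both sides of the lowest mock value. Its difference of -0.24 had an interval of -0.51 to 0.03.

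The direct comparison of CAC with NCAC at 8 weeks asked which differences went with the cachectic cells. Acss2, Fads1 and Elovl5 were lower in CAC, so 3 of 10 genes were lower and 0 higher, where 1.64% of all tested genes were lower. The median difference of the 10 genes was -0.19 and that of all tested genes 0.05. Acss2 differed by -0.32 with an SE of 0.066 (limma, adjusted p = 0.00141) and Fads1 by -0.22 with an SE of 0.052 (adjusted p = 0.00624), and for both genes every CAC library lay below every NCAC library, which held for 0.476% of all tested genes. Fads1 had an adjusted p of 0.053 without NCAC replicate 5. Elovl5 differed by -0.22 (limma, adjusted p = 0.045), overlapped between the arms, and lost its call under 11 of 19 alternatives, among them leaving out NCAC replicate 1, 2, 4 or 5 (adjusted p = 0.136, 0.0805, 0.05002 and 0.173) or CAC replicate 1, 2, 6 or 7 (adjusted p = 0.11, 0.0934, 0.151 and 0.0814).

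The other desaturases lay close to the threshold in that comparison. Scd1 differed by -0.37, with an interval of -0.62 to -0.12, Fads2 by -0.23, with an interval of -0.38 to -0.07, and Scd2 by -0.16, with an interval of -0.28 to -0.05 (limma, adjusted p = 0.0635, 0.0647 and 0.0848). With scaling by trimmed means (TMM), which corrects for a shift common to most genes, 6 of the 10 genes were lower, and the same count was reached without CAC replicate 3, which had the high erythroid score. The count was 1 without NCAC replicate 5. Acaca was the gene of the 10 that lay highest in CAC against NCAC, at 0.21 with an interval of 0.04 to 0.39, and it did not pass (adjusted p = 0.141).

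At 6 weeks, before the last time point, Fads1 fell in CAC relative to mock. It was 1 of 10 genes lower with 0 higher, where 0.428% of all tested genes were lower, and all 10 differences were below 0, with a median of -0.13 against 0.03 over all tested genes. Fads1 was at 207, 231, 229.5, 225 and 230.0 TPM in mock libraries and at 174, 201, 199, 186 and 195 TPM in CAC libraries. The groups did not overlap, which held in that direction for 1.05% of all tested genes. The log2 difference was -0.23 with an SE of 0.056 (limma, adjusted p = 0.016), and the call was lost without mock replicate 3 (adjusted p = 0.0529) or CAC replicate 1 (adjusted p = 0.124). Scd1 was at 93.6, 150.1, 119.8, 101 and 119.9 TPM in CAC and at 157, 134, 148, 166 and 162 TPM in mock libraries. CAC replicate 2 lay inside the mock range, and the difference of -0.40, with an interval of -0.68 to -0.13, did not pass (adjusted p = 0.109). Acss2 differed by -0.22, with an interval of -0.36 to -0.08 (adjusted p = 0.0924). Without CAC replicate 5 the count was 2 of 10, and so it was with TMM scaling. Of 10 mature oligodendrocyte markers 1 was lower in CAC at 6 weeks, with a summed level of 2104 to 2344 TPM against 2165 to 2890 TPM in mock, and of 10 astrocyte markers 2 were higher, with 2560 to 3125 against 2567 to 2763 TPM. Of all 14494 tested genes 62 were lower and 174 higher in that comparison. The part of these markers was not tested.

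Against NCAC at 6 weeks, Acss2 and Fads1 were lower in CAC, 2 of 10 genes with 0 higher, where 1.6% of all tested genes were lower. Fads1 differed by -0.22 with an SE of 0.056 (limma, adjusted p = 0.0138), and its NCAC libraries, at 219, 217, 218, 231 and 224 TPM, all lay above the CAC libraries, as was the case for 1.48% of all tested genes. The call was lost without CAC replicate 1 (adjusted p = 0.0653), which left 0 of the 10 genes lower. Acss2 was at 13.6, 13.99, 15.7, 13.2 and 13.3 TPM in NCAC and at 10.99, 11.8, 11.7, 11.3 and 13.5 TPM in CAC libraries, with CAC replicate 5 inside the NCAC range. Its difference of -0.22 had an SE of 0.071 (limma, adjusted p = 0.0409) and lost its call under 9 of 17 alternatives, with adjusted p-values of 0.0781, 0.102, 0.0571 and 0.0639 without NCAC replicate 2, 3, 4 or 5 and of 0.115, 0.0643 and 0.0976 without CAC replicate 1, 3 or 4. NCAC and mock at 6 weeks differed in 0 of the 10 genes and in 0% of all genes (limma), while 953 of all genes had an unadjusted p under 0.05. The one gene of the 10 among those was Acaca, at 15.9 ± 1.58 TPM in NCAC and 18.6 ± 2.78 TPM in mock libraries, a difference of -0.21 (adjusted p = 0.662).

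At 2 weeks Scd2 and Fads2 were lower in CAC than in mock libraries, 2 of 10 genes with 0 higher, where 0.6% of all tested genes were lower. All 10 differences were below 0, with a median of -0.14 against 0.04 over all tested genes. Fads2 was at 203, 202, 216, 196 and 262 TPM in mock and at 169, 168, 185, 171 and 158 TPM in CAC libraries. Scd2 was at 1042, 1126, 1159, 1027 and 1325 TPM in mock and at 991, 923, 989, 941 and 974 TPM in CAC libraries. For both genes the groups did not overlap, and mock replicate 5 was the highest library. The log2 difference was -0.33 with an SE of 0.083 for Fads2 and -0.23 with an SE of 0.063 for Scd2 (limma, adjusted p = 0.0158 and 0.0276). Fads1, at -0.18, and Elovl5, at -0.20, also had every CAC library below every mock library but did not pass (adjusted p = 0.0524 and 0.097). Thus 4 of 10 genes lay lower without overlap, as did 1.16% of all tested genes.

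These differences of week 2 rested on few libraries. Without mock replicate 5, whose hypothalamus and pituitary markers summed to 3761 TPM against 19.9 to 142 TPM in the other mock libraries, 0 of the 10 genes were lower. The difference of Fads2 was then -0.26 (adjusted p = 0.0686) and that of Scd2 -0.17 (adjusted p = 0.108). The count was also 0 without CAC replicate 1 (adjusted p = 0.0556 and 0.0607) or CAC replicate 5 (0.0755 and 0.0779), and 1 without CAC replicate 2, where Scd2 had 0.0594. Marker levels differed too, where 533 of all 14494 tested genes were higher and 87 lower. Of 9 neuron markers 5 were higher in CAC than in mock at 2 weeks, with a summed level of 4487 to 5347 against 3324 to 4734 TPM, and of 10 astrocyte markers 0 were called and 10 were below 0, with a summed level of 2619 to 2869 against 2939 to 3182 TPM. Their part in the differences was not tested.

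Scd2 was also lower in NCAC than in the same mock libraries at 2 weeks, at 924, 922, 1137, 1019.8 and 877 TPM. This was 1 of 10 genes lower with 0 higher, where 2.84% of all tested genes were lower. The difference was -0.22 with an SE of 0.063 (limma, adjusted p = 0.0283) and was lost without mock replicate 3 (adjusted p = 0.0563), mock replicate 5 (0.0977) or NCAC replicate 1, 2 or 5 (0.0707, 0.104 and 0.114). Without mock replicate 4 the count was 2 of 10. CAC and NCAC at 2 weeks differed in 0 of the 10 genes and in 0% of all genes (limma), while 616 of all genes had an unadjusted p under 0.05. Of the 10 genes, 1 was among these, Fads2, at -0.17 with an interval of -0.34 to -0.01.

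At 4 weeks 0 of the 10 genes passed in any pair of arms by limma, where the share of all genes called in either direction was 0.0414% for CAC against mock, 0% for NCAC against mock and 0.0069% for CAC against NCAC. At an unadjusted p under 0.05 the counts were 1, 0 and 3 of the 10, and 1895, 89 and 2361 of all genes. Elovl5 was at 57.02, 61.96, 68.1, 66.7 and 75.1 TPM in CAC and at 76.6, 78.7, 70.4, 80.5 and 72.1 TPM in mock libraries, and CAC replicate 5 alone reached the mock range. Its difference of -0.20 had an interval of -0.35 to -0.05 (limma, adjusted p = 0.262), and against NCAC it was -0.22 (adjusted p = 0.139). Without CAC replicate 5 the count was 1 of 10 against mock and 2 of 10 against NCAC. CAC replicate 1, the library with the low striatum score, was the lowest of the CAC libraries of that week for 7 of the 10 genes, Elovl5, Acly, Fads2, Scd2, Scd1, Fasn and Acaca, and the highest for Acss2, at 16.03 TPM. With lane as a term in the fit, the count of the 10 genes was 0 as well. The lane term rested on NCAC of week 4 alone, with 4 libraries in lane 3 and 1 in lane 4. That fit therefore cannot tell lane from arm for CAC against mock.

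Change over time in the CAC-to-mock difference was tested as an interaction. From 2 to 8 weeks 0 of the 10 genes passed (limma), where 1.32% of all genes were called in either direction. At an unadjusted p under 0.05 there were 1 of the 10 genes and 1914 of all 14494. Acss2 lay closest, with its difference lower by -0.22 at 8 than at 2 weeks, an SE of 0.097 and an interval of -0.42 to -0.03 (limma, adjusted p = 0.291). Scd1 had -0.31 with an interval of -0.68 to 0.06, whereas Scd2 had 0.01 with an interval of -0.16 to 0.18. From 6 to 8 weeks 0 of the 10 and 0% of all genes passed by limma, and 0 of the 10 and 186 of all genes had an unadjusted p under 0.05. The calls of single weeks therefore do not show that the genes differed between weeks.

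Mock libraries alone were compared over time as a background for age and lane. Between 8 and 2 weeks 0 of the 10 genes passed (limma), where 11.8% of all genes were called in either direction, 1600 of them higher and 110 lower at 8 weeks. At an unadjusted p under 0.05 there were 4 of the 10 genes and 4288 of all 14494. Those 4 were Fads2, Scd2, Fads1 and Elovl5, at -0.23, -0.17, -0.14 and -0.17 (adjusted p = 0.0534, 0.0705, 0.0851 and 0.109). Without mock replicate 5 of week 8 the count was 3 of 10, and without mock replicate 4 of week 2 it was 2. With TMM scaling the count was 2, and 59.7% in place of 93.6% of all calls were higher. Between 8 and 4 weeks, which share a lane among mock libraries, 0 of the 10 and 0% of all genes passed, with 0 of the 10 and 2059 of all genes at an unadjusted p under 0.05. Over the 12 groups, CAC at 8 weeks had the lowest mean of Scd1, Scd2, Elovl5, Elovl6, Fads1 and Fads2. Mock at 2 weeks had the highest mean of all of these but Elovl6. Mock replicate 5 of week 2, which stood apart by its markers, was the highest mock library of that week for all of them. Median Scd1 was 160 TPM in mock at 2 weeks and 165 TPM in mock at 8 weeks.

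**Figure D3:**
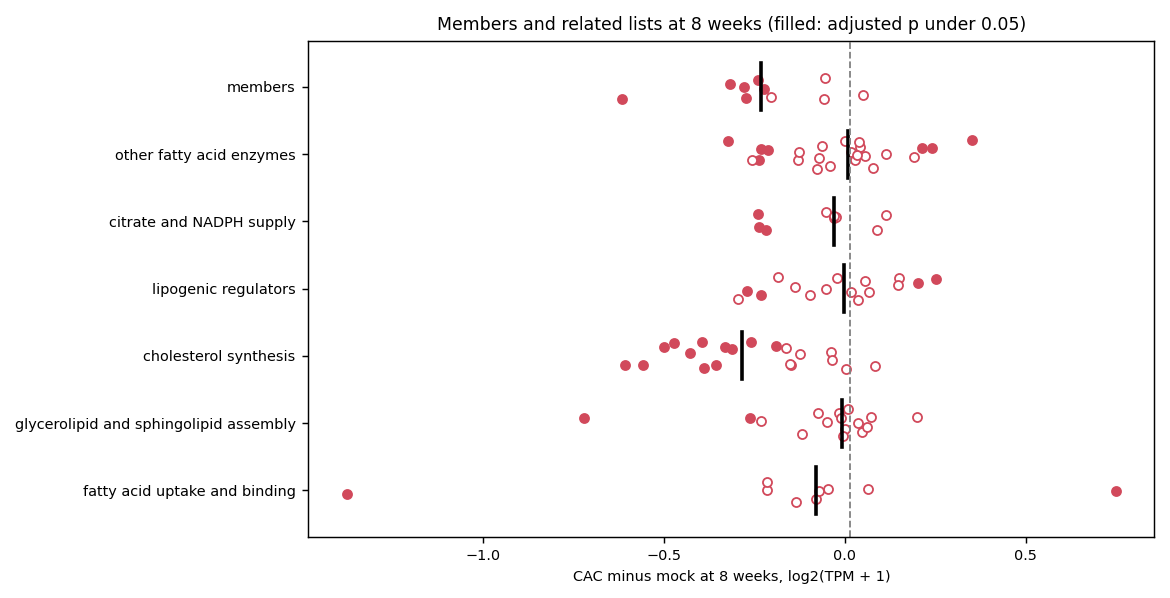
Difference between CAC and mock at 8 weeks on the log2(TPM + 1) scale (x axis) for the 10 genes (members) and the genes of 6 related lists (y axis, points spread vertically for legibility). Filled points had an adjusted p under 0.05 by limma, black bars are list medians and the dashed line is the median of all tested genes. The bars of the 10 genes, at -0.23, and of cholesterol synthesis, at -0.29, lie left of the line, and those of other fatty acid enzymes and of lipogenic regulators close to it.

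The genes around the pathway were set beside it at 8 weeks. Of all 14494 tested genes 535 were lower and 712 higher in CAC than in mock, with a median of 0.02. Among 24 tested of 29 other fatty acid enzymes 4 were lower and 3 higher, with a median of 0.01. The lower ones were Acsl6, an acyl-CoA synthetase of brain, at -0.23, Acss1, the mitochondrial counterpart of Acss2, at -0.32, Hsd17b12, a reductase of the elongation cycle, at -0.24, and Elovl2, an elongase of polyunsaturated chains, at -0.21. The higher ones were Hacd2, a dehydratase of the elongation cycle, at 0.35, Acsl3 at 0.24 and Elovl4, an elongase of very long chains, at 0.21. Elovl2, Acsl3 and Elovl4 are named because of their values. Of 9 genes for citrate and NADPH supply 3 were lower and 0 higher, with a median of -0.03. These were the malic enzyme gene Me1 and the isocitrate dehydrogenase gene Idh1, both at -0.24, which make NADPH, and the mitochondrial citrate carrier gene Slc25a1 at -0.22. Slc25a1 lost its call without mock replicate 3 or 5 or CAC replicate 6.

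The regulators went in both directions. Of 16 lipogenic regulators 2 were higher and 2 lower, with a median of 0.00. Of all 14494 tested genes 712 were higher and 535 lower. Srebf2, the SREBP gene known for cholesterol synthesis, fell, with a mean of 134 ± 6.44 TPM in mock (SD, n = 5) and 112 ± 12.4 TPM in CAC libraries (n = 7), a log2 difference of -0.27 with an SE of 0.067 (limma, adjusted p = 0.00684). Srebf1, the SREBP gene known for fatty acid synthesis, rose, from 31.2 ± 2.52 to 37.4 ± 4.04 TPM, a difference of 0.25 with an SE of 0.073 (adjusted p = 0.0207), so it moved opposite to 6 of the 10 enzyme genes. Its call was lost without mock replicate 1 or 3 or CAC replicate 1. Mid1ip1, an activator of acetyl-CoA carboxylase, was at -0.23 (adjusted p = 0.0256, and lost with TMM scaling and without any of 5 libraries), and Rxra, a nuclear receptor partner of LXR, at 0.20 (adjusted p = 0.0321, lost without any of 8 libraries). Insig1, which retains SREBP in the endoplasmic reticulum, was at -0.18 with an interval of -0.38 to 0.01 and did not pass (adjusted p = 0.26).

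Cholesterol synthesis, which shares SREBP control with these genes, had 12 of 20 genes lower and 0 higher at 8 weeks, with a median of -0.29. Of all 14494 tested genes 535 were lower and 712 higher. Hmgcs1 was at -0.61, Idi1 at -0.56, Msmo1 at -0.50 and Sc5d at -0.39. Of 16 genes of glycerolipid and sphingolipid assembly 2 were lower and 0 higher, with a median of -0.01, namely the genes of galactolipid synthesis in myelin, Ugt8a at -0.72 and Gal3st1 at -0.26, the latter lost without any of 9 libraries. Of 9 genes of fatty acid uptake and binding 1 was lower and 1 higher, with a median of -0.08. Fabp7, a fatty acid binding protein of astrocytes and progenitors, was at -1.38, and Mfsd2a, the transporter of docosahexaenoic acid at the blood-brain barrier, was at 0.75. At 6 weeks 62 of all 14494 tested genes were lower and 174 higher. The same lists then held few calls, namely Hacd2 at 0.34, Me1 at -0.25, Hmgcs1 at -0.39, Msmo1 at -0.32 and Ugt8a at -0.70 (limma, adjusted p = 0.0206, 0.0155, 0.0085, 0.0498 and 0.0349). Each of these lost its call without CAC replicate 1. All but Hmgcs1 also lost it without at least 1 mock library.

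The 10 genes were then compared with each other over the 62 libraries, after each group mean was subtracted, so that differences between arms and weeks do not enter. Of 45 pairs 44 had a positive Pearson correlation, with a median r of 0.453. By permutation within groups (100000 resamples) 34 had an adjusted p under 0.05. The share among pairs of other genes was not tested, so whether these counts are particular to the 10 genes is not known. The desaturases and Elovl5 went together. Scd2 and Fads2 had r = 0.757 (rho = 0.682), Scd1 and Scd2 r = 0.72 (rho = 0.726), and Elovl5 and Fads1 r = 0.716 (rho = 0.74), each with a permutation p of 1e-05, the smallest that these resamples can give, and an adjusted p of 4.5e-05. For pairs of genes, the 2 most distant libraries are those furthest from the median in the first named gene. Libraries distant only in the other gene stayed in. Without those 2 libraries r was 0.722, 0.723 and 0.691. Within lane 3 (24 libraries) r was 0.827, 0.822 and 0.729, and within lane 4 (38 libraries) 0.679, 0.647 and 0.756.

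Fasn correlated with Scd2 at r = 0.749 (rho = 0.757, permutation p = 1e-05, adjusted p = 4.5e-05), with 0.718 without the 2 most distant libraries and 0.773 and 0.774 within lanes 3 and 4. Thus Fasn, which was not called at 8 weeks, varied between libraries of a group together with Scd2, which was. Acaca and Fads1, by contrast, had r = -0.0373 (rho = -0.0146, permutation p = 0.811, adjusted p = 0.849) and Acly and Fads1 r = 0.0255 (rho = 0.0614, p = 0.869, adjusted p = 0.869). These stayed at -0.099 and -0.0746 without the 2 most distant libraries, at 0.0737 and 0.0305 within lane 3, and at -0.125 and 0.0185 within lane 4. No relation of Fads1 with Acly or Acaca was detected within groups.

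**Figure D4:**
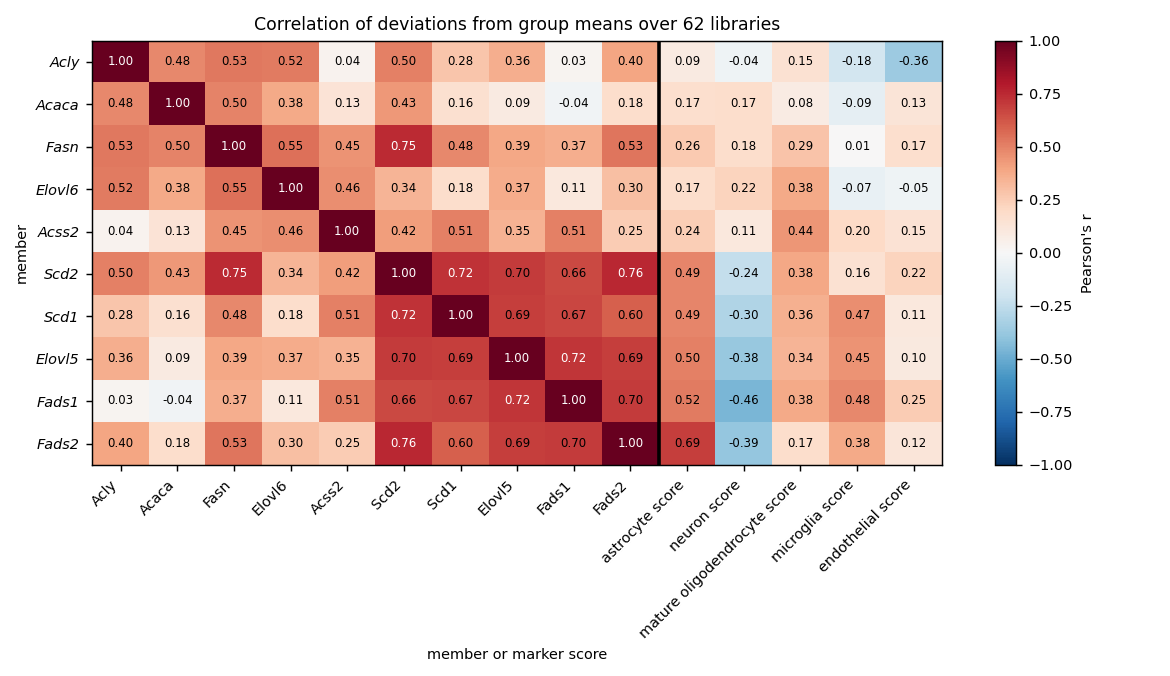
Pearson correlation (colour and number in each cell) of log2(TPM + 1) deviations from group means over 62 libraries, among the 10 genes (rows, and columns left of the black line) and with the score of 5 cell type marker lists (columns right of the line). Scd2, Scd1, Elovl5, Fads1 and Fads2 form a block of high values, and Acly and Acaca are close to 0 with Fads1.

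The same deviations were set beside marker scores, the mean log2 level of a list of cell type markers, in 50 relations that were chosen after the first results were seen. With the astrocyte score, Fads2 had r = 0.69 (rho = 0.673), Fads1 0.523 (rho = 0.574), Elovl5 0.501 (rho = 0.509), Scd1 0.487 (rho = 0.475) and Scd2 0.486 (rho = 0.492), with permutation p-values of 1e-05 (the smallest possible), 0.00023, 0.00021, 0.00082 and 0.00051 and adjusted p-values of 5e-04, 0.00337, 0.00337, 0.00683 and 0.0051. For scores, the 2 most distant libraries are those furthest from the median in the score, and libraries distant only in the gene stayed in. Without those 2 libraries r lay between 0.503 and 0.663. Within lane 3 it was 0.648, 0.389, 0.443, 0.243 and 0.498, and within lane 4 0.732, 0.654, 0.541, 0.653 and 0.48. Acss2, Fasn, Acaca, Acly and Elovl6 had r of 0.244, 0.261, 0.17, 0.0873 and 0.172 with that score and did not pass (adjusted p = 0.222, 0.122, 0.358, 0.606 and 0.358).

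Relations with the other scores passed for several genes too. With the microglia score Fads1, Scd1, Elovl5 and Fads2 had r = 0.48, 0.465, 0.451 and 0.375 (rho = 0.482, 0.392, 0.429 and 0.409, permutation p = 0.00027, 0.00133, 0.0017 and 0.0072, adjusted p = 0.00337, 0.0095, 0.0106 and 0.0228). Without the 2 most distant libraries these were 0.473, 0.321, 0.479 and 0.397, within lane 3 0.444, 0.215, 0.270 and 0.355, and within lane 4 0.545, 0.581, 0.508 and 0.417. With the mature oligodendrocyte score 6 genes passed, namely Acss2, Scd1, Scd2, Elovl5, Elovl6 and Fads1, with r of 0.337 to 0.439. Within lanes 3 and 4, Scd1 had 0.501 and 0.237, Scd2 0.469 and 0.275, and Fads1 0.504 and 0.216. Elovl5 had 0.288 and 0.411, and Elovl6 0.373 and 0.398. By rank Fads1 did not pass (permutation of rho, adjusted p = 0.0513). Acss2 had its highest r with the mature oligodendrocyte score, at 0.439 (rho = 0.399, permutation p = 0.00283, adjusted p = 0.0141). This r was 0.634 within lane 3 and 0.14 within lane 4, and whether it differed between lanes was not tested. Lane 3 held week 2 and most tumour-arm libraries of week 4, so lane and week cannot be told apart. Fads1 and the neuron score had r = -0.457 (rho = -0.479, permutation p = 0.00231, adjusted p = 0.0128), with -0.367 without the 2 most distant libraries, -0.356 within lane 3 and -0.614 within lane 4. Elovl5 and Fads2 also passed with the neuron score, at r = -0.379 and -0.39 (rho = -0.338 and -0.339, permutation, adjusted p = 0.0163 and 0.0282). Within lane 3 these were -0.377 and -0.491, and within lane 4 -0.44 and -0.254. Acly passed with the endothelial score, at r = -0.364 (rho = -0.36, permutation, adjusted p = 0.0228), with -0.549 within lane 3 and -0.167 within lane 4. All values of a library are parts of 1 fixed sum, which genes and scores share.

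For each gene, the tested protein-coding gene whose deviations were most like its own over the 62 libraries was taken from 13213 candidates as a description. Scd2 was most like Ptprz1, a receptor phosphatase of astrocytes and oligodendrocyte precursors, with r = 0.806. Fads1 was most like Acsbg1, an acyl-CoA synthetase, with r = 0.806, Fads2 like Nacc2 with r = 0.767 and Elovl5 like Magt1 with r = 0.832. Scd1 was most like Rrbp1 with r = 0.677 and Acss2 like Igdcc4 with r = 0.699. Fasn was most like the lipoprotein receptor gene Lrp1 with r = 0.852, Acly like the axon guidance receptor gene Robo1 with r = 0.886, Acaca like the synaptic gene Rims2 with r = 0.768 and Elovl6 like Synj2bp with r = 0.903. The single most alike genes of the 10 were thus 10 different genes. Lower ranks were shared in part, as Ptprz1 was at rank 2 for Fads2 with r = 0.757.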

How the data were processed

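The authors deposited 1 table of TPM values for 47643 genes in 62 libraries. The genome build was mm10, per the submitters' processing notes. How reads were aligned, quantified and assigned by strand was not given in the sources used here. Low TPM values change in steps of 1 read, and with GENCODE vM21 exon lengths these steps gave the depth: 85.8% of 194097 values between 0.5 and 10 reads were whole within 0.05. Nothing further describes the biological replicates, so p-values measure the spread between libraries.

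The filter of 1 TPM on the mean left 14494 genes, which were fitted as log2(TPM + 1) over all 12 groups with limma 3.58.1 in R 4.3.3 (empirical Bayes with trend, 50 residual degrees of freedom). This scale understates changes of low genes. Benjamini-Hochberg adjustment ran over all genes within each of 16 comparisons, and a call is an adjusted p under 0.05. The script was tested on simulated data. The 10 genes and all lists were chosen with earlier results of these data known. Named are the 10 genes, up to 4 called genes of lowest p of each list at 8 and at 6 weeks, Srebf1, Srebf2, Insig1 and Mid1ip1, and the most alike gene of each. Marker scores are means of log2(TPM + 0.1) over a list.

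As alternatives, the pseudocount was set to 0.1, the filter was dropped, TMM scaling was applied (trimming 30% of ratios and 5% of levels), moderation was made robust, the replicate number entered as a block, lane entered the fit of week 4, only the groups compared were fitted, CAC replicate 1 of week 4 and CAC replicates 3 and 4 of week 8 were left out together, and each library was left out in turn.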

Additional observations from a re-analysis of the deposited data

Results flagged for a closer look

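In 6 of 120 groups of a gene, arm and week, the highest or lowest library lay unusually far from the others of its group, which chance alone gives in about 1 in 20 groups. Acaca was at 23.54 TPM in mock replicate 3 of week 6, and the other 4 libraries lay between 16.83 and 17.66 TPM. Scd1 was at 85.0 TPM in CAC replicate 6 of week 8, below the other 6 libraries at 103 to 115 TPM. Elovl5 was at 79.75 TPM in mock replicate 5 of week 8, above the others at 71.7 to 73.84 TPM. Elovl6 was at 22.56 TPM in NCAC replicate 4 of week 8, below the others at 26.67 to 28.08 TPM. Fads1 was at 207.2 TPM in mock replicate 1 of week 6, below the others at 225.2 to 231 TPM, and Fads2 at 214.6 TPM in mock replicate 2 of week 4, above the others at 172.1 to 179.4 TPM. No cause was tested. Without CAC replicate 6 or mock replicate 5 of week 8 the count of genes lower in CAC than in mock was 5 of 10 each, against 6 with all libraries.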

How the results depend on the processing

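Each call of a gene named by the rule was repeated under every alternative that applied, and 0 of 719 repeats changed the direction, while 117 missed the threshold. The repeats covered only results already called and shared most of their libraries, so an unchanged direction is not independent support. Acss2, Scd1 and Fads1 in CAC against mock at 8 weeks passed under all 19. With TMM scaling the number of the 10 genes called became 2 in CAC against mock at 6 weeks (from 1), 6 in CAC against NCAC at 8 weeks (from 3) and 2 in mock at 8 against 2 weeks (from 0). With only the groups compared it became 0 in CAC against mock at 2 weeks (from 2), 0 in NCAC against mock at 2 weeks (from 1), 0 in CAC against mock at 6 weeks, 1 in CAC against NCAC at 6 weeks (from 2) and 1 in CAC against NCAC at 8 weeks. With no filter on level it became 1 in CAC against NCAC at 6 weeks. Elovl5 lost its call with no filter in CAC against NCAC at 8 weeks (limma, adjusted p = 0.0689). Elovl5 also lost it with only the groups compared in CAC against mock at 8 weeks (limma, adjusted p = 0.0519). Smaller changes of a count are not all listed. Without CAC replicate 1 of week 4 and CAC replicates 3 and 4 of week 8, which stood apart by their marker scores, it became 2 in NCAC against mock at 2 weeks and 1 in mock at 8 against 2 weeks. The cause of these shifts was not tested.

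The replicate numbers do not pair the samples: same-numbered libraries of a week had correlations of -0.213 to 0.191, with 4 of 20 over 0.1. With the replicate block the count was 3 in CAC against mock at 8 weeks, where Elovl5, Scd2 and Fads2 had an adjusted p of 0.0735, 0.0509 and 0.0876, and 1 in mock at 8 against 2 weeks. Of the other genes named at 8 weeks Fabp7, Mfsd2a, Srebf1, Slc25a1, Mid1ip1, Rxra and Gal3st1 also missed the threshold with the block, at an adjusted p of 0.0601, 0.0822, 0.0613, 0.214, 0.213, 0.181 and 0.154, as did Elovl5 in CAC against NCAC, at 0.292.

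Leaving out each library in turn gave 0 to 3 genes in CAC against mock at 2 weeks, 0 to 2 in NCAC against mock at 2 weeks, 0 to 1 in CAC against mock and 0 to 2 in CAC against NCAC at 4 weeks, 0 to 2 in CAC against mock and 0 to 3 in CAC against NCAC at 6 weeks, 1 to 6 in CAC against NCAC at 8 weeks, 5 to 6 in CAC against mock at 8 weeks, and 0 to 3 in mock at 8 against 2 weeks. TMM scaling also moved the share of higher genes among all calls from 73.7% to 52.5% in CAC against mock at 6 weeks, from 83.4% to 38.5% and from 72.9% to 46.1% in CAC against NCAC at 6 and 8 weeks, and from 93.6% to 59.7% in mock at 8 against 2 weeks. Genes under a mean of 1 TPM were not tested, and the depth of 44.7 to 50.5 M estimated reads sets that limit alike in all groups.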
